A study of Mus musculus with 5 samples.

Results

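H3K36me3-free deserts were stretches of 2 Mb or more between neighbouring islands of H3K36me3, with the lists of both conditions pooled, on chromosomes 1 to 19 of mouse build mm9. They were chosen by the measured positions of H3K36me3 islands alone, so the absence of that mark from them is no result. There were 214 such deserts, and they held 12294 of the 42119 autosomal H3K9me3 islands of the study, 7834 from L-proline-induced cells (PiCs) and 4460 from untreated embryonic stem cells (ESCs). An island is a region called as enriched, and it was counted as a member when it lay wholly within a desert. The word desert refers here only to the absence of H3K36me3 islands, since no gene annotation of mm9 was used. For the same reason the cells could not be checked against marker genes.

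The study mapped both histone marks by chromatin immunoprecipitation and sequencing (ChIP-seq) in TBV2 cells, a wild-type 129/SvP mouse embryonic stem cell line. All cells were seeded at low density on gelatin without feeders, in medium with leukemia inhibitory factor and without added non-essential amino acids. PiCs were kept for 5 days with 500 µM L-proline, and ESCs for the same 5 days without it. Each mark and condition had 1 library, so no difference between PiCs and ESCs had a replicate check and no p-value was computed. Intervals are 95% intervals that treat islands as independent and cover counting error only.

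H3K9me3 is a trimethyl mark on the tail of histone H3 that is typical of silent heterochromatin. In mouse ESCs it is laid down by Setdb1 together with Trim28 over many endogenous retroviruses, and by the Suv39h enzymes over pericentromeric satellites and LINE-1 elements. H3K36me3 is written by Setd2, which travels with elongating RNA polymerase II, so it follows the bodies of transcribed genes. Long stretches without it are usually poor in transcribed genes.

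The deserts measured from 2.01 to 9.79 Mb, with a median of 2.82 Mb, and together made up 713.4 Mb, or 29.6% of the 2411 Mb between the outermost islands of each autosome. Of their 428 edges, 248 were set by a PiC H3K36me3 island and 219 by an ESC one, with edges that coincided counted in both. The cutoff at 2 Mb fell in a continuous range of gap lengths. Just above it lay gaps of 2.0064 Mb on chromosome 9, 2.015 Mb on chromosome 4 and 2.021 Mb on chromosome 7. They held 15, 53 and 8 PiC islands, against 12, 35 and 3 ESC islands. Just under it lay gaps of 1.988 Mb on chromosome 7, 1.9844 Mb on chromosome 5 and 1.9802 Mb on chromosome 17. These held 9, 57 and 32 PiC islands, against 5, 28 and 17 ESC islands.

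The H3K9me3 lists of all chromosomes held 25867 islands in PiCs and 18464 in ESCs, and the tags in them summed to 3514489 and 1511058. Tags outside islands are not in the lists, and the library depths are unknown. On the autosomes the ratio of PiC to ESC tags in islands was 2.29, and the part of this larger yield in the differences described here was not tested. On chromosome 1 the H3K9me3 islands stood closer together in the deserts than on any other autosome, at 18.4 per Mb in PiCs and 10.4 per Mb in ESCs. The other 18 autosomes ranged from 7.67 to 15.0 per Mb of desert in PiCs and from 3.89 to 8.34 per Mb in ESCs.

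Within the deserts H3K9me3 islands were more numerous in PiCs than in ESCs. The excess was proportionally larger there than over the remaining autosomal span taken as a whole. PiCs had 11.0 islands per Mb of desert (interval 10.7 to 11.2), against 6.25 in ESCs (6.07 to 6.44). The ratio of island numbers was 1.76 (1.69 to 1.82). Outside the deserts there were 9.77 islands per Mb in PiCs (9.62 to 9.92) and 7.80 in ESCs (7.67 to 7.93), a ratio of 1.25 (1.22 to 1.28). The ratio in the deserts was thus 1.40 times the ratio outside (1.34 to 1.46). In PiCs the deserts were denser in islands than the remaining autosomal span, whereas in ESCs they were sparser. That span includes sequence under H3K36me3 islands and gaps under 0.1 Mb, where PiCs had 6.68 islands per Mb. In PiCs the gaps of 0.1 to 0.5, 0.5 to 1 and 1 to 2 Mb were near the deserts, at 10.6, 11.4 and 10.8. In ESCs these gaps had 8.68, 7.54 and 6.48 islands per Mb. The deserts held 32.1% of the autosomal PiC islands and 25.2% of the autosomal ESC islands, on 29.6% of the sequence. They accounted for 3374 of the 6725 islands by which the autosomal PiC list exceeded the ESC list, or 50.2%. An island does not tell whether more cells carry the mark at a place or whether each cell carries more of it.

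The covered length differed more than the number. H3K9me3 islands covered 29.5 Mb of desert in PiCs, or 4.14%, with a mean width of 3.77 kb, and 11.98 Mb in ESCs, or 1.68%, with a mean width of 2.69 kb. This is a ratio of 2.47, compared with 1.4999 outside the deserts, where the mean widths were 3.73 kb in PiCs and 3.11 kb in ESCs. The H3K9me3 lists were also taken at equal size, so that the ratio over all autosomes was 1 by construction. The ratio of island numbers was then 1.29 in the deserts (1.24 to 1.34) and 0.901 outside (0.879 to 0.924). The deserts then stood at 1.43 times the ratio outside (1.37 to 1.501). Without chromosome 1 the relative ratio was 1.40 (1.34 to 1.47).

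The difference between conditions grew with the length of the stretch that was free of H3K36me3. Gaps under 0.1 Mb held 6.68 islands per Mb in PiCs and 7.45 in ESCs, a ratio of 0.897 (interval 0.834 to 0.965). In gaps of 0.1 to 0.5 Mb the ratio was 1.22 (1.17 to 1.28), in gaps of 0.5 to 1 Mb it was 1.51 (1.44 to 1.59), and in gaps of 1 to 2 Mb it was 1.66 (1.59 to 1.74). The PiC density changed little from 0.1 Mb upwards, between 10.6 and 11.4 islands per Mb. The ESC density declined over the same classes, at 8.68, 7.54, 6.48 and 6.25 islands per Mb. A last group held islands that touched H3K36me3 of either condition or lay before the first or past the last H3K36me3 island of a chromosome. These numbered 2013 in PiCs and 2528 in ESCs, a ratio of 0.796 (0.751 to 0.845). Those at chromosome ends were not counted apart from those touching H3K36me3.

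**Figure D1:**
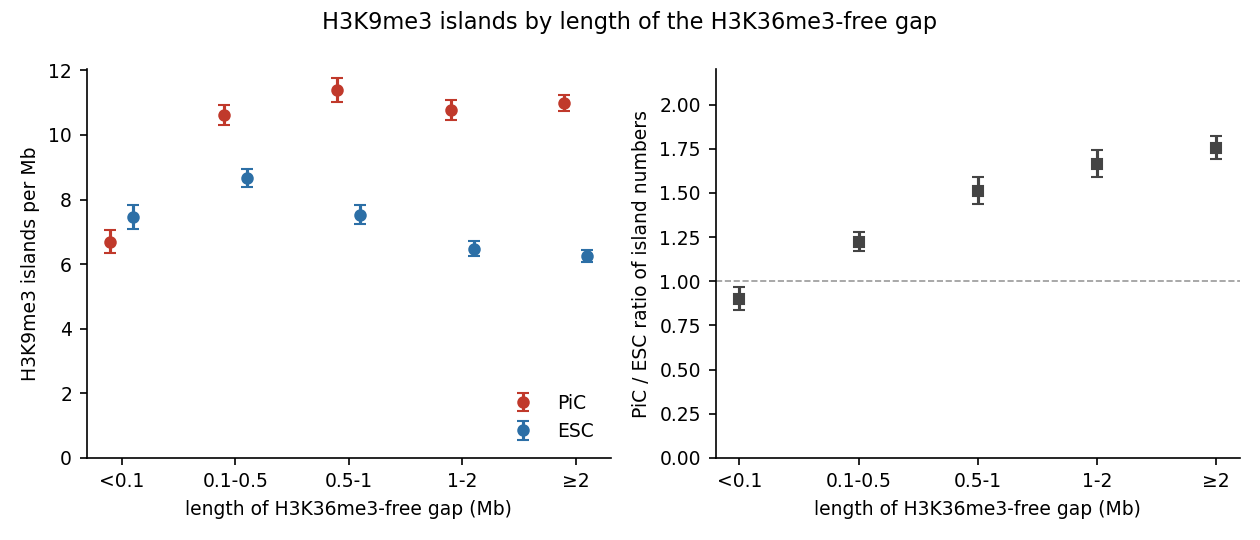
H3K9me3 islands lying wholly in H3K36me3-free gaps of chromosomes 1 to 19, by length of the gap in Mb, as islands per Mb in PiCs and ESCs (left) and as the PiC/ESC ratio of island numbers (right). Points are single libraries, bars are 95% counting intervals, and the dashed line marks a ratio of 1; the ratio runs from 0.897 in gaps under 0.1 Mb to 1.76 in gaps of 2 Mb or more.

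Past 2 Mb the ratio no longer varied with length. It was 1.76 in the 122 deserts of 2 to 3 Mb, 1.76 in the 70 deserts of 3 to 5 Mb and 1.76 in the 22 deserts of 5 Mb or more (interval 1.62 to 1.90). The deserts as a whole stood at 1.06 times the ratio of the 313 gaps of 1 to 2 Mb, with an interval of 0.996 to 1.12 that includes 1. A distinct behaviour of gaps past 2 Mb was therefore not detectable at these island numbers.

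Every desert held islands of both conditions, and every desert held more PiC than ESC islands. The number per desert ranged from 4 to 147 in PiCs, with a median of 28, and from 2 to 81 in ESCs, with a median of 16.5. More PiC than ESC islands were found in 214 of 214 deserts, whereas among the 982 gaps of 0.5 Mb or more that held any H3K9me3 island, deserts included, this share was 88.4%, and among those of 1 to 2 Mb it was 93.6%. Shorter gaps hold fewer islands, so that ties and reversals come more easily there. A PiC number at least 1.5 times the ESC number was reached in 169 deserts, or 79.0%, against 65.5% of all such gaps and 65.9% of those of 1 to 2 Mb. The covered share was also larger in PiCs in 214 of 214 deserts, with a median of 3.26% in PiCs and 1.40% in ESCs. Single gaps under 2 Mb were not counted in this way, so it was not tested whether this is particular to deserts. Pooled over the gaps of 1 to 2 Mb, islands covered 3.996% in PiCs and 1.72% in ESCs. In gaps under 0.1 Mb the order was reversed, at 2.17% in PiCs and 2.47% in ESCs.

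Deserts differed from one another far more than the conditions did, and they kept much the same order in both. The density ranged from 1.56 to 41.7 islands per Mb in PiCs, with a median of 9.64, and from 0.650 to 23.2 in ESCs, with a median of 5.55. Across the 214 deserts the PiC and ESC densities had a Spearman coefficient of 0.936, given as a description, since both lists share the mappable sequence and the position of each desert. When the deserts were ranked by the islands of both lists per Mb and split in 4 classes, the sparsest class held 4.59 islands per Mb in PiCs and 2.23 in ESCs, a ratio of 2.06 (1.82 to 2.33). The next classes had ratios of 1.76 (1.61 to 1.93) and 1.72 (1.61 to 1.84). The densest class held 19.8 islands per Mb in PiCs and 11.5 in ESCs, a ratio of 1.72 (1.63 to 1.82).

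**Figure D2:**
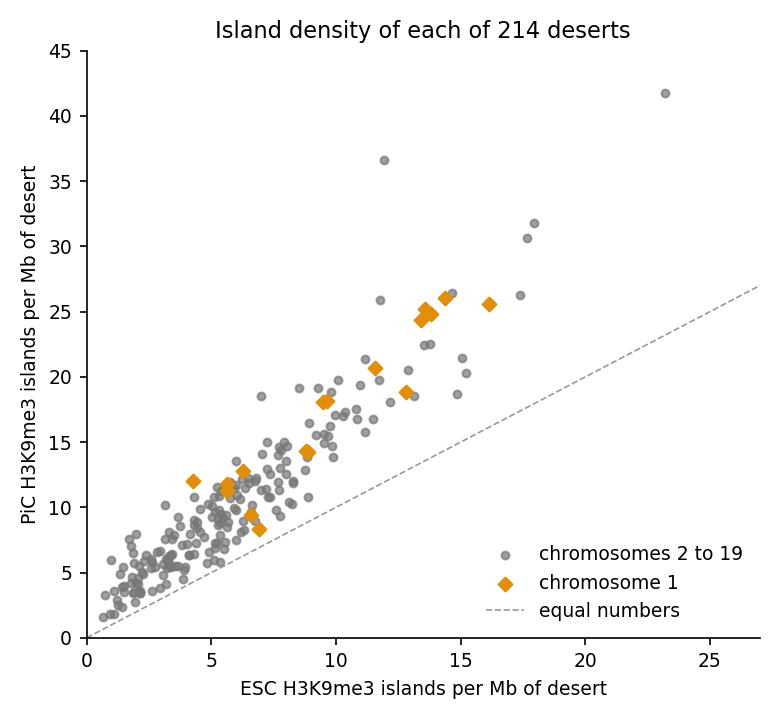
Density of H3K9me3 islands in each of the 214 deserts, with ESC islands per Mb on the horizontal axis and PiC islands per Mb on the vertical axis. Each point is 1 desert, diamonds are the deserts of chromosome 1, and the dashed line marks equal numbers; all 214 points lie above it, up to 41.7 islands per Mb in PiCs.

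The desert with the most PiC islands per Mb lay on chromosome 9 at 4388001 to 6976200, near the centromeric end. It carried 108 PiC islands and 60 ESC islands, which covered 21.3% of it in PiCs and 6.52% in ESCs. The next by PiC islands per Mb was on chromosome 17 at 18655601 to 21084400, with 89 PiC islands and 29 ESC islands. It also had the largest difference in density of all deserts, at 36.6 islands per Mb in PiCs and 11.9 in ESCs. The third was on chromosome 7 at 31939801 to 34892800, with 94 PiC and 53 ESC islands. In ESC islands per Mb it exceeded the chromosome 17 desert, at 17.9 against 11.9. Another desert of chromosome 7, at 13947801 to 16500000, had the third largest difference, with 66 PiC islands and 30 ESC islands. In the chromosome 17 desert 31 of the 89 PiC islands overlapped an ESC island, and in the chromosome 9 desert 53 of the 108.

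At the other end, the desert with the fewest islands per Mb spanned 7.70 Mb of chromosome 7, at 39054601 to 46752000, and held 12 PiC and 5 ESC islands. The next sparsest deserts lay on chromosome 7 at 36586801 to 38737600, with 4 PiC and 2 ESC islands, and on chromosome 16 at 73045601 to 75755000, with 5 PiC and 3 ESC islands. The conditions were closest in a desert of chromosome 3 at 146420401 to 148479400, where 12 PiC islands stood against 11 ESC islands. On chromosome 8 at 55613801 to 58721000 there were 14 PiC islands and 12 ESC islands. In each of these 5 deserts the interval of the ratio of island numbers includes 1. On chromosome 7 at 39054601, for example, the ratio was 2.4 with an interval of 0.787 to 8.70.

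The 3 longest deserts had 12.6, 14.7 and 11.5 PiC islands per Mb, against 7.35, 8.04 and 5.92 ESC islands per Mb. The first, on chromosome 5 at 54512001 to 64301800, held 123 PiC islands and 72 ESC islands. Of these, 70 PiC islands overlapped ESC islands and 70 ESC islands overlapped PiC islands. The second, on chromosome 3 at 41425801 to 51000200, held 141 PiC and 77 ESC islands, with 74 and 75 of them shared. The third, on chromosome 14 at 106318801 to 115441600, held 105 PiC and 54 ESC islands, with 47 and 49 shared. In all 3 nearly every ESC island had a PiC island at its place, and a further set of PiC islands stood between them.

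**Figure D3:**
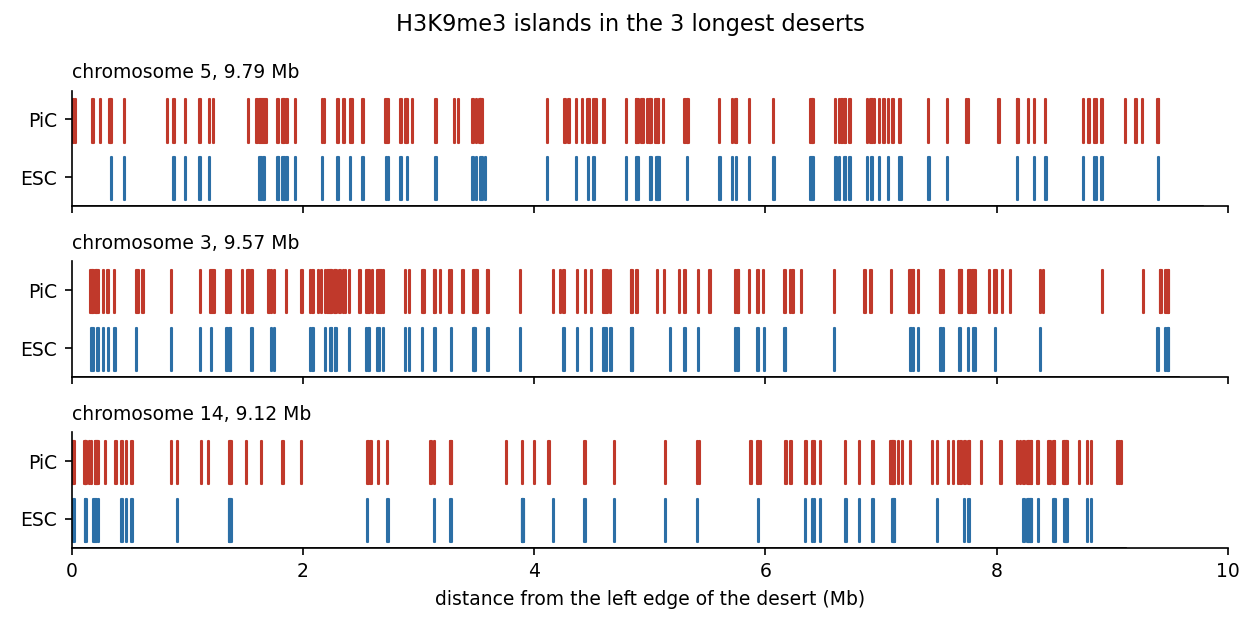
Positions of H3K9me3 islands in the 3 longest deserts, in Mb from the left edge of each, with PiC islands in the upper row and ESC islands in the lower row of each panel. Islands are drawn at least 12 kb wide so that they can be seen; the panels hold 123, 141 and 105 PiC islands and 72, 77 and 54 ESC islands from top to bottom.

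The direction of the difference was the same on each autosome. The PiC/ESC ratio in the deserts of a chromosome ranged from 1.54 on chromosome 13 to 2.11 on chromosome 17, and it exceeded the ratio outside the deserts of that chromosome on 19 of 19 autosomes. The difference between both ratios was smallest on chromosome 13, where the ratio outside was 1.47 with an interval of 1.33 to 1.61 that includes the desert value. It was widest on chromosome 11, at 2.08 in the deserts and 1.03 outside. The intervals of the desert and outside ratios overlapped on chromosomes 3, 6, 9, 10, 13, 14, 16, 18 and 19. On chromosome 15, the only autosome with fewer PiC than ESC islands outside the deserts, the ratio outside was 0.793 (0.719 to 0.875), while the 6 deserts of that chromosome held 287 PiC and 185 ESC islands, a ratio of 1.55.

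Mouse chromosomes have their centromere at the low-coordinate end, and deserts near it were richer in H3K9me3 in both conditions. The 43 deserts with a midpoint under 25 Mb held 14.6 islands per Mb in PiCs (interval 13.97 to 15.3) and 8.20 in ESCs (7.71 to 8.70). The 48 deserts with a midpoint past 100 Mb held 9.86 in PiCs (9.36 to 10.4) and 5.41 in ESCs (5.05 to 5.80). Without chromosome 1, deserts past 100 Mb held 7.78 in PiCs and 4.10 in ESCs. The PiC/ESC ratio varied less with position. It was 1.78 (1.65 to 1.92) under 25 Mb, 1.79 from 25 to 50 Mb, 1.69 (1.59 to 1.80) from 50 to 100 Mb and 1.82 (1.67 to 1.99) past 100 Mb.

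Neighbouring islands stood closer together in PiCs. The distance from an island to the next one in the same desert had a median of 32.8 kb in PiCs, with quartiles of 7.8 and 96.6 kb, against a median of 58.3 kb in ESCs, with quartiles of 14.8 and 161.8 kb. The spacing was uneven in both conditions. Its median was 0.402 of its mean in PiCs and 0.422 in ESCs. Distances under 10 kb made up 28.3% of the spacings in PiCs and 21.0% in ESCs, where whole chromosomes had 28.9% in PiCs and 23.2% in ESCs. Close spacing was thus no more frequent in the deserts than over whole chromosomes. When islands were joined over gaps of up to 10 kb, runs of 3 or more islands numbered 431 in PiCs and held 21.0% of the desert islands, against 171 runs with 13.0% of the islands in ESCs. Outside the deserts such runs held 24.2% of the islands in PiCs and 17.5% in ESCs. The run with the most islands in PiCs had 13 islands over 100.2 kb, on chromosome 1 at 85218201 to 85318400. In ESCs it had 6 islands over 26.2 kb, on chromosome 1 at 17928201 to 17954400. Isolated islands prevailed nonetheless, with 54.5% of PiC and 65.1% of ESC desert islands more than 10 kb from the next, against 52.6% of PiC and 58.9% of ESC islands outside.

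**Figure D4:**
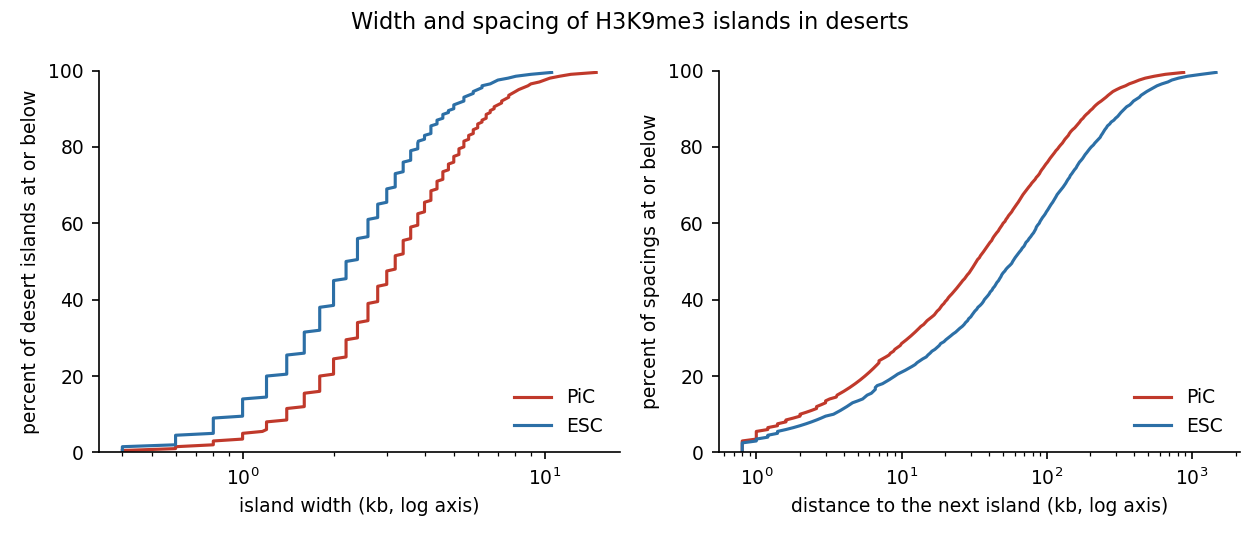
Cumulative distributions of the width of H3K9me3 islands in deserts (left) and of the distance to the next island in the same desert (right), in kb on log axes, for PiCs and ESCs. The PiC curve lies at larger widths (median 3.2 kb in PiCs, 2.2 kb in ESCs) and at shorter distances (median 32.8 kb in PiCs, 58.3 kb in ESCs).

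Most long stretches of desert without an ESC island held PiC islands. Stretches of over 500 kb free of PiC islands numbered 161 and took up 139.1 Mb, or 19.5% of the desert. Those free of ESC islands numbered 283 and took up 267.2 Mb, or 37.5%. Of the PiC-free stretches 25 held an ESC island, with 0.194 ESC islands per Mb (interval 0.128 to 0.282). Of the ESC-free stretches 247 held a PiC island, 774 in all, or 2.90 PiC islands per Mb (2.70 to 3.11). These densities were below those of the deserts as a whole, at 11.0 PiC islands and 6.25 ESC islands per Mb. The stretches were chosen for lacking islands of a given list and scored with the other, and the PiC list was the larger. The part of this choice and of list size in the contrast between the conditions was not tested.

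Stretches free of both lists and longer than 500 kb numbered 153 and made up 18.5% of the desert. The longest by far covered 7337 kb of chromosome 7, at 39191401 to 46528400, and filled most of the sparsest desert named above. The next were 3448 kb on chromosome 7 at 20650401 to 24098400 and 2194 kb on chromosome 12 at 22861001 to 25055200. Stretches that reads cannot be mapped to and stretches without the mark cannot be told apart in island lists, so densities in such deserts are lower bounds on those of their mappable part.

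Desert islands were wider in PiCs than in ESCs, and in ESCs they were narrower than over the remaining autosomal span taken as a whole. The median width in the deserts was 3.2 kb in PiCs, with quartiles of 2.2 and 4.8 kb, and 2.2 kb in ESCs, with quartiles of 1.4 and 3.4 kb. Outside the deserts it was 3.0 kb in PiCs and 2.6 kb in ESCs. In gaps of 1 to 2 Mb it was 3.0 kb in PiCs and 2.2 kb in ESCs, so the narrow ESC islands were not particular to the deserts. A width of 5 kb or more was reached by 24.4% of desert islands in PiCs (interval 23.4 to 25.3) and 10.2% in ESCs (9.29 to 11.1). Outside the deserts the shares were 22.1% in PiCs (21.5 to 22.8) and 14.2% in ESCs (13.6 to 14.8), so that wide islands by this measure were more frequent in the deserts in PiCs and less frequent there in ESCs. Those of at least 10 kb numbered 205 in PiCs and 31 in ESCs, a ratio of 6.61 (4.52 to 9.99) that was 3.31 (2.77 to 3.98) outside the deserts. They were 2.62% of PiC and 0.695% of ESC desert islands, against 3% of all autosomal PiC islands and 1.07% of all autosomal ESC islands. At this stricter limit the share in the deserts was below that over all autosomes in both lists.

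Tags were unscaled and rank islands only within their own list. The tag density of desert islands was near that of other islands of the same list, with medians of 32.7 tags per kb in deserts and 33.8 outside in PiCs, and 26.7 in deserts and 25 outside in ESCs. The deserts held 31.0% of the tags in autosomal PiC islands and 22.8% of those in ESC islands.

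Nearly all ESC islands of the deserts were also found in PiCs, while about as many PiC islands were shared as were not. An overlap of 1 bp or more with an island of the other condition was found for 4046 of the 7834 PiC desert islands, or 51.6% (interval 50.5 to 52.8). The share over all autosomal PiC islands was 55%. Among the ESC desert islands 4154 of 4460 were shared, or 93.1% (92.4 to 93.9), against 78.9% of all autosomal ESC islands. Outside the deserts 56.6% of PiC islands (55.9 to 57.4) and 74.1% of ESC islands (73.4 to 74.9) were shared. The share of ESC islands kept in PiCs increased with the length of the H3K36me3-free gap, at 57.5% in gaps under 0.1 Mb, 71.6%, 86.6% and 89.9% in the next classes, and 93.1% in the deserts. For PiC islands it declined over the same classes, at 61.6%, 56.5%, 54.8%, 52.0% and 51.6%.

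The shared portion followed the number of tags in an island. In the fifth of PiC desert islands with the fewest tags, 23 to 60, 24.7% were shared, and in the fifth with the most, 178 or above, 78.5%. In ESCs 78.7% of the fifth with the fewest tags, 18 to 37, was shared, and 99.8% of the fifth with the most, at 96 or above. With 50% of each island required to lie under the other, 34.4% of PiC and 60.4% of ESC desert islands counted as shared.

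Most of the 3788 PiC-only islands of the deserts lay away from ESC islands. They covered 11.9 Mb, with a median width of 2.8 kb against 3.8 kb in shared PiC islands, and had 30.1 tags per kb against 35.4. Their median distance to the nearest ESC island was 34.6 kb. Of the 3788, 976 lay within 10 kb of an ESC island. The other 2812, or 35.9% of all PiC desert islands, had none within that distance, against 32.5% of all autosomal PiC islands. The same class had similar values outside the deserts, with a median width of 2.6 kb and 30.6 tags per kb.

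The 306 ESC-only islands of the deserts were few and narrow. They covered 0.484 Mb, with a median width of 1.2 kb against 2.4 kb in shared ESC islands. Their tag density was no lower than that of shared islands, with medians of 27.5 tags per kb in the ESC-only and 26.7 in the shared islands. Outside the deserts the 3426 ESC-only islands differed from these in both respects, with a median width of 3.0 kb and 16.7 tags per kb, against 27.7 tags per kb in shared ESC islands there. In the deserts 196 ESC islands had no PiC island within 10 kb, or 4.39%, against 17.2% of all autosomal ESC islands.

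Where 1 PiC island and 1 ESC island overlapped each other and no further island, their extents could be set side by side. Of 3715 such pairs in the deserts the PiC island was the wider in 80.1% (interval 78.7 to 81.3), of equal width in 7.51% and the narrower in 12.4%. The median width was 3.6 kb in PiCs and 2.4 kb in ESCs, with a median difference within pairs of 1.2 kb. In 36.3% of the pairs the PiC island reached past the ESC island on both sides, and in 29.9% it was at least 2 times as wide. Outside the deserts the PiC island was the wider in 69.0% of 8520 pairs (68.0 to 70.0), with a median difference of 0.8 kb. There it reached past the ESC island on both sides in 29.4% and was at least 2 times as wide in 24.0%. Both edges were identical in 212 of the 3715 desert pairs and in 536 of the 8520 pairs outside. At least 2 ESC islands were bridged by 177 PiC islands of the deserts, or 2.26%, against 3.34% outside. At least 2 PiC islands were bridged by 86 ESC islands of the deserts, or 1.93%, against 1.40% outside.

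Of the 3 widest desert islands of PiCs, 2 overlapped ESC islands. The first measured 27.4 kb on chromosome 3 at 4867601 to 4895000 and spanned 2 ESC islands that together measured 20.4 kb. The second measured 22.8 kb on chromosome 7 at 69731801 to 69754600, where the ESC island measured 6 kb. The third, of 21.0 kb, lay in the same desert at 69658801 to 69679800 and overlapped no ESC island, the nearest being 2 kb away. In ESCs the widest were 16.6 kb on chromosome 1 at 119645001 to 119661600, 16.6 kb on chromosome 3 at 44907001 to 44923600 and 16 kb on chromosome 1 at 119969801 to 119985800. The PiC islands at these places measured 18.2 kb, 22.2 kb in 2 islands and 16.2 kb.

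The desert island with the most tags was the same in both lists, with identical edges on chromosome 2 at 98502201 to 98507800. It held 10373 tags in PiCs and 5097 in ESCs, or 1852 and 910.2 tags per kb, far above the next desert island of either list. Outside the deserts islands of up to 24497 tags in PiCs and 12657 in ESCs were found. The input library was not analysed here, so tags gathered without the antibody cannot be told apart at this site. In PiCs the next were on chromosome 1 at 87484001 to 87496400, with 1245 tags, and on chromosome 12 at 116850601 to 116860200, with 1199 tags. In ESCs the second was on chromosome 15 at 72635601 to 72644000, with 567 tags, where the PiC island held 215. The PiC island there measured 8 kb and the ESC island 8.4 kb. Its 26.9 tags per kb in PiCs were below the PiC desert median of 32.7, while its 67.5 tags per kb in ESCs were above the ESC desert median of 26.7.

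Considering islands more than 10 kb from any island of the other condition, the widest of PiCs were a pair of neighbours in 1 desert of chromosome 3, at 25428401 to 25442200 (13.8 kb) and 25443001 to 25456600 (13.6 kb), 108 and 122.6 kb from the nearest ESC island. The third lay in the second longest desert, on chromosome 3 at 43410801 to 43423600 (12.8 kb). Those of ESCs were narrower and sparse in tags. They measured 7 kb on chromosome 13 at 73399001 to 73406000, 5.4 kb on chromosome 14 at 22809401 to 22814800 and 5.2 kb on chromosome 7 at 15405801 to 15411000, with 13.1, 11.7 and 14.2 tags per kb. The chromosome 13 island lay 46 kb from the edge of its desert and the chromosome 14 island 138.8 kb.

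H3K9me3 islands were denser in the outer 0.25 Mb of the deserts than in their interior, in both conditions. In the outer 0.25 Mb of each side there were 13.0 islands per Mb in PiCs (interval 12.3 to 13.7) and 8.16 in ESCs (7.63 to 8.72). From 0.25 to 0.5 Mb the values were 11.8 in PiCs and 6.73 in ESCs, and from 0.5 to 1 Mb they were 10.3 and 5.78. Past 1 Mb from both edges there were 10.4 in PiCs (10.0 to 10.8) and 5.71 in ESCs (5.44 to 5.995). The ratio of PiC to ESC islands was 1.59 (1.46 to 1.74) in the outermost zone and 1.82 (1.71 to 1.94) in the interior. In the 37 deserts of 4 Mb or more the order was the same, with 14.1 islands per Mb in PiCs and 9.14 in ESCs in the outer zone, and 9.96 in PiCs and 5.44 in ESCs past 1 Mb. Without chromosome 1 the outer zone had 11.99 in PiCs and 7.54 in ESCs, and the interior 9.72 in PiCs and 5.36 in ESCs.

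**Figure D5:**
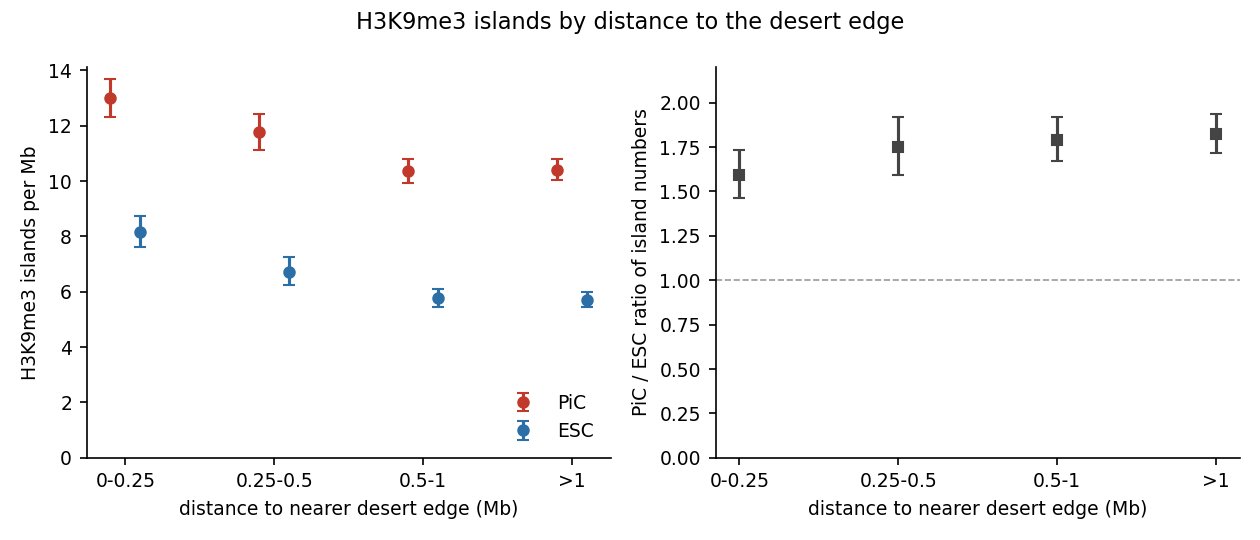
H3K9me3 islands per Mb in PiCs and ESCs (left) and the PiC/ESC ratio of island numbers (right) by distance of the island's midpoint to the nearer desert edge, in Mb. Points are single libraries, bars are 95% counting intervals, and the dashed line marks a ratio of 1; density is highest in the outer 0.25 Mb (13.0 in PiCs, 8.16 in ESCs) and the ratio is 1.59 there and 1.82 past 1 Mb.

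Close to the edge the conditions were nearest to each other. In the outermost 25 kb there were 123 PiC and 99 ESC islands, a ratio of 1.24 (interval 0.946 to 1.64) that includes 1, and from 25 to 50 kb there were 121 and 89. Per Mb these outermost bins held 11.5 (9.55 to 13.7) and 11.3 islands in PiCs, and 9.25 and 8.32 in ESCs. From 50 to 100 kb the density was 14.2 in PiCs (12.6 to 15.8) and 9.11 in ESCs, and from 100 to 250 kb it was 13.1 in PiCs and 7.63 in ESCs. In PiCs the density was thus lower in the 50 kb next to the edge than from 50 to 250 kb, though the intervals of single bins overlap. Islands that crossed an edge were not members, so the rule itself leaves out islands there. The size of this effect on density and ratio was not tested. From 100 to 250 kb the ratio was 1.72 (1.54 to 1.93). The first island was met at a median of 70.8 kb from an edge in PiCs and 116 kb in ESCs. Over all desert islands the median distance to the nearer edge was 793.6 kb in PiCs and 769.5 kb in ESCs, where an even spread over the deserts would give 833.3 kb.

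ESC-only islands differed from shared islands in their place within the desert, while PiC-only islands hardly did. PiC-only islands lay at a median of 809.2 kb from the nearer edge, with quartiles of 375.6 and 1290 kb. For shared PiC islands the median was 781.2 kb, with quartiles of 353.8 and 1292 kb. ESC-only islands lay nearer to the edge, at a median of 584.6 kb against 779.6 kb in shared ESC islands. Their quartiles were 185.85 and 1034 kb, against 351.9 and 1291 kb in shared ESC islands. The share of ESC islands also found in PiCs was 89.2% (interval 87.0 to 91.2) in the outer 0.25 Mb and 94.6% (93.4 to 95.6) past 1 Mb. For PiC islands the shares were 53.6% (50.9 to 56.2) and 50.9% (49.1 to 52.7). The median width varied little with the distance, at 3.2 kb in all 4 zones in PiCs and between 2.2 and 2.4 kb in ESCs.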

How the data were processed

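Used here were 4 ChIP-seq libraries, H3K9me3 and H3K36me3 of PiCs and of ESCs, each sequenced on a SOLiD 4 instrument per the labels' protocols. The input library was not analysed here. SICER, a caller of broad enriched regions, and build mm9 are named by the submitters' processing notes. For its version and thresholds, the aligner, duplicate handling and use of the input, the entry is "not given in the sources used here". All of these could set the number and width of islands. Each deposited file lists 1 library's islands with a whole number that was read as a count of tags, unscaled. Islands lay on a grid of 200 bp, and positions are given 1-based.

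H3K36me3 islands of both lists were merged, the gaps between them were measured, and chromosome ends were no gap. The remaining span, from the first to the last base under any island, was called outside. Computation used Python 3.11.15, numpy 2.4.6, pandas 2.3.3, scipy 1.17.1 and matplotlib 3.10.9. Densities carry exact Poisson intervals, shares exact (Clopper-Pearson) binomial intervals, ratios the interval from the binomial share of PiC islands, and ratios of ratios a normal interval on the log scale. Islands and PCR copies are not independent, so these cover counting error only. The functions were tested on simulated lists and, for overlap and nearest distance, against a direct recount on part of the real lists. In all, 11 of 11 checks passed.

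Members and the rule for named regions were chosen with earlier results of these data known. The rule names the longest, densest and sparsest deserts, those with the most and least different density, the gaps at the limit, the widest and most tag-rich islands, the widest islands of 1 condition and the longest empty stretches, 3 of each. The run with the most islands and the chromosomes named were chosen after their values were seen. Alternatives changed the gap limit, the H3K36me3 list that bounds gaps, the H3K9me3 islands used, the chromosomes and the overlap that counts as shared.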

Additional observations from a re-analysis of the deposited data

How the results depend on the processing

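No paired analysis was possible because 1 library stood for each group, and none could be left out. The settings without chromosome 1, and the ratio in deserts over that outside under each setting, were chosen after seeing the data. The ratio of PiC to ESC island numbers in deserts stayed above 1 in all 12 settings tried. It was 1.89 with the 50% of each H3K9me3 list richest in tags, 1.29 with lists of equal size and 1.87 with islands of at least 1 kb, and the ratio of covered lengths was 2.60 and 2.17 with the first 2 of these. Outside the deserts the ratio turned to 0.901 with lists of equal size, which fix the ratio over all autosomes at 1. It was 1.20 with deserts of 1.5 Mb or more, 1.32 with 3 Mb or more, 1.22 with gaps of the ESC H3K36me3 list alone, 1.22 with the richest 50%, 1.28 at a width of 1 kb or more and 1.29 without chromosome 15. The ratio in deserts over that outside ranged from 1.33 with deserts of 3 Mb or more to 1.55 with the richest 50%. PiC islands per Mb of desert were 10.7 with deserts of 3 Mb or more, 11.5 with gaps of the ESC list alone, 5.62 with the richest 50%, 8.08 with lists of equal size, 9.89 after joining islands over 2 kb, 10.6 at a width of 1 kb or more and 10.3 without chromosome 1. ESC islands per Mb were 6.65 with gaps of the ESC list alone, 2.97 with the richest 50%, 5.82 when joined, 5.67 at 1 kb or more, 6.07 at 100 kb or more from both edges and 5.89 without chromosome 1. The shared portion of PiC desert islands was 47.2% with the richest 50%, 60.5% with lists of equal size, 53.2% when joined, 49.1% at 1 kb or more, 34.4% with an overlap of 50% of both islands and 54.7% with islands within 2 kb counted. That of ESC islands was 92.4% with deserts of 1.5 Mb or more, 90.3% with the richest 50%, 81.5% with lists of equal size, 94.0% at 1 kb or more, 60.4% with 50% of both and 94.1% within 2 kb. Apart from list size, which the equal lists fix by construction, the cause of these shifts was not tested. The depth of the libraries is unknown, and a deeper library can yield more and wider islands.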

Other observations

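Chromosome X, left out of the deserts described above, had 23 H3K36me3-free gaps of 2 Mb or more, 97.7 Mb in all. They held 899 PiC and 483 ESC H3K9me3 islands, or 9.20 islands per Mb in PiCs and 4.94 in ESCs, a ratio of 1.86 (interval 1.66 to 2.08). Elsewhere on that chromosome PiCs had 462 and ESCs 259 islands, a ratio of 1.78 (1.53 to 2.09), where the autosomes had 1.25 outside their deserts. The difference between chromosome X and the autosomes was not tested.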
